A study of Sus scrofa with 8 samples.

Results

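Peaks of 2 histone marks and of CTCF were examined at 10 genes of fat cell formation (adipogenesis) in pig embryonic fibroblasts (PEFs). The genes were 6 regulators, the transcription factor genes PPARG, PPARA, PPARD, CEBPA, CEBPB and CEBPD, and 4 effector genes that serve the mature fat cell, FABP4, LPL, PLIN1 and ADIPOQ. The rule takes them by name and uses no measured value, and each was found once among the 28077 RefSeq genes of chromosomes 1 to 18 and X of the Sscrofa11.1 assembly, of which 19487 are protein-coding. PEFs are primary cells grown out of dissociated tissue, here of Large White fetuses aged 35 days, and all libraries came from untreated cells. ChIP-seq, in which DNA bound to a protein or a modified histone is pulled down with an antibody and sequenced, was done with 2 replicates each for H3K4me3, H3K27ac and CTCF. The labels do not say whether replicates came from separate fetuses or cultures, so the spread between them may be technical. The series holds no fat cells and no PEFs induced towards them, so every value describes the fibroblast before differentiation.

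Fat cells form from fibroblast-like precursors in a cascade of transcription factors. The C/EBP factors beta and delta, encoded by CEBPB and CEBPD, act early and switch on PPARG and CEBPA, whose products then maintain each other and turn on the genes of lipid uptake and storage. PPARG and its relatives PPARA and PPARD are nuclear receptors for fatty acids and bind DNA together with RXR. H3K4me3 marks promoters and H3K27ac marks active promoters and enhancers. CTCF is a zinc finger protein that binds a long motif with a direction and helps to fold chromatin into loops and domains.

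The 6 deposited lists held from 37932 to 81164 peaks, and they give no read counts, so the depth behind a peak is unknown. Of 12 fibroblast markers, 12 had both histone marks at the transcription start site (TSS) in both replicates. H3K4me3 was found at 1 of 5 endothelial, 0 of 5 blood, 5 of 5 epithelial, 3 of 4 muscle and 4 of 5 neural markers, and H3K27ac at 0, 1, 1, 2 and 1 of them. Of 5 markers of mature fat cells, 2 had H3K4me3 (LEP and LIPE) and 2 had H3K27ac (CFD and LIPE) in both replicates. The lipid droplet genes CIDEC and PLIN4 had neither mark. At the TSS in both replicates, 68.9% of protein-coding genes had H3K4me3, 60.7% had H3K27ac and 58.9% had both.

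At the annotated TSS, all regulators but PPARA carried both histone marks, and of the effector genes LPL did. The gene models of PPARA and CEBPB begin at the coding start, so they do not give the place of the promoter. An H3K4me3 peak within 1 kb of the TSS was present in both replicates at 5 of 6 regulators and 1 of 4 effector genes, or 6 of 10, where 55.4% of all genes and 68.9% of protein-coding genes had one. H3K27ac gave the same 6 genes, against 50.1% of all and 60.7% of protein-coding genes, and both histone marks together were found at 47.0% and 58.9%. In a culture of mixed cells, a mark in fewer cells and a weaker mark in every cell cannot be told apart. CTCF was found at 5 of 6 regulators and 0 of 4 effector genes, against 15.2% of all and 17.9% of protein-coding genes. This contrast depended on the distance of 1 kb, since LPL, PLIN1 and ADIPOQ had shared CTCF regions 3289, 3104 and 4226 bp from the TSS. Within 5 kb, CTCF was found at 5 of 6 regulators and 3 of 4 effector genes. The shares of all and of protein-coding genes with CTCF within 5 kb were not computed, and those given here are for 1 kb. Among protein-coding genes with both histone marks at the TSS in both replicates, 24.5% also had CTCF there, and 11.5% of all genes and 14.4% of protein-coding genes had the 3 together. The remaining 4 genes, PPARA, FABP4, PLIN1 and ADIPOQ, had no peak of any kind within 1 kb in any of the 6 libraries, as did 37.4% of all and 26.1% of protein-coding genes. At all 10 genes and for all 3 targets, a peak was either present in both replicates or absent from both. Members are too few and too unlike each other to serve as replicates, so these shares are set side by side without a test.

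Fold enrichment, the ratio of ChIP signal over control that the peak caller gave at the summit, was compared within each library, because H3K4me3 folds were lower in replicate 2 than in replicate 1 at each of the 6 marked genes. At the TSS peaks of all genes, the median H3K4me3 fold was 50.9 in replicate 1 and 24.8 in replicate 2.

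CEBPD, one of the early factors, had H3K4me3 folds of 56.1 and 39.8 in replicates 1 and 2, the highest of the 6 marked genes in both. CEBPB, the other early factor, had 54.7 and 21.9. Summits of these peaks lay more than 1 kb after the TSS, at 1204 and 1985 bp for CEBPD and 2089 and 1709 bp for CEBPB. All distances for CEBPB are counted from its coding start, where its gene model begins. CEBPA had 48.6 and 22.9. The 3 C/EBP genes therefore lay close to the median of marked genes, with the exception of CEBPD in replicate 2. PPARG, the master regulator of the fat cell, had 46.3 and 18. PPARD, which is expressed in many tissues, had 42.4 and 27.3. LPL, the lipase that frees fatty acids from circulating lipoproteins, had 39.3 and 15.5, the lowest of the 6 in both. Means ± SD (n = 2) ran from 27.4 ± 16.9 for LPL to 47.9 ± 11.5 for CEBPD. These SDs include the difference in fold between the 2 libraries, so they do not measure how firm the order of the genes is. Between CEBPD and LPL, the order of the other genes differed between replicates.

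H3K27ac separated the same genes more widely, and its folds differed less between replicates. CEBPD had folds of 37.3 and 42.1, above 97.1% of the 11830 protein-coding genes with the mark. CEBPB had 26.6 and 27.6, above 79.9% of them. Both early factors stood above the other 4 genes in each replicate, with no overlap of values. Their H3K27ac summits also lay more than 1 kb after the TSS, at 1705 and 1180 bp for CEBPD and 1207 and 1067 bp for CEBPB. These folds therefore belong to peaks that overlap the 1 kb around the TSS, and not to the start itself. PPARD had 11.9 and 17.3, PPARG 10.9 and 13.8, and CEBPA 10.6 and 13.9. Those 3 genes overlapped each other and lay below the medians of all genes with a TSS peak, which were 16.1 and 18.6. LPL was far lower, with 3.01 and 4.88.

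**Figure D1:**
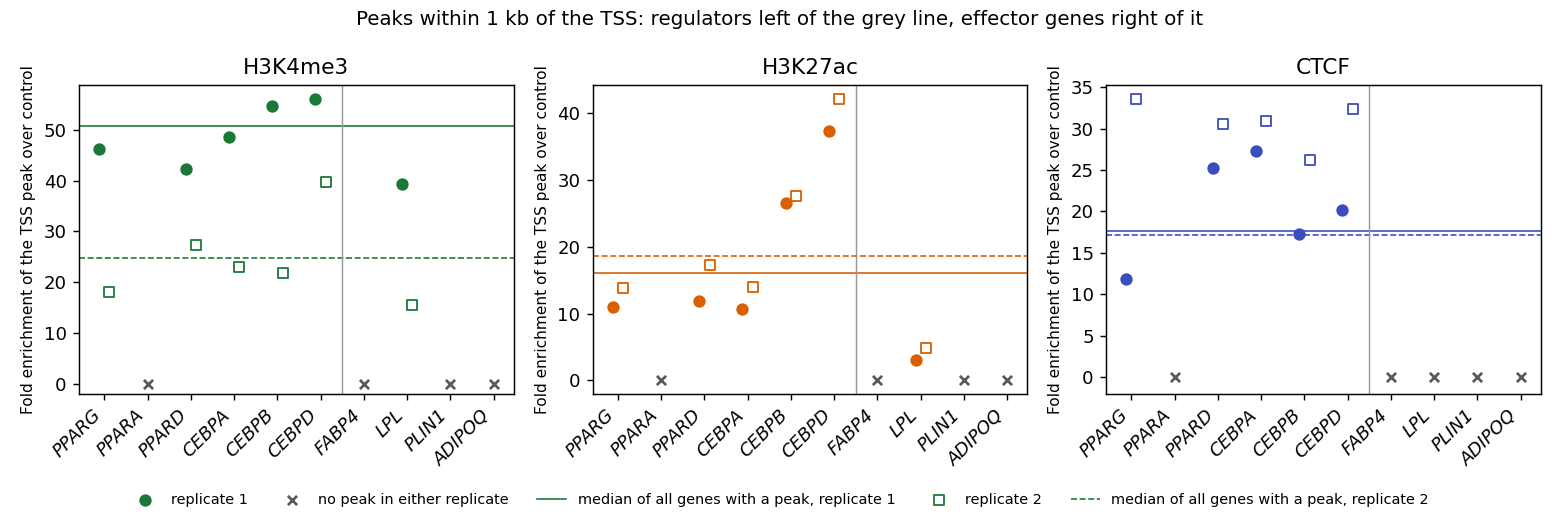
Fold enrichment over control (y axis, linear) of the highest peak within 1 kb of the TSS of each gene (x axis), for H3K4me3, H3K27ac and CTCF, with 1 point per replicate, crosses for genes with no peak and lines at the median of all genes with a TSS peak in that replicate. PPARA, FABP4, PLIN1 and ADIPOQ have no peak of any kind, CEBPD and CEBPB have the highest H3K27ac folds, and LPL has H3K4me3 with H3K27ac folds of 3.01 and 4.88 and no CTCF.

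The peaks of the early factors were also broad. The H3K27ac peak of CEBPB measured 8877 and 8812 bp and that of CEBPD 7965 and 9145 bp, where the median TSS peak of all genes measured 2428 and 2404 bp. H3K4me3 peaks measured 5828 and 6021 bp at CEBPB and 5058 and 5291 bp at CEBPD, against medians of 2702 and 2870 bp. Both genes have a single exon and are short, 1041 bp for CEBPB (chromosome 17, 51722633 to 51723673, plus strand) and 1619 bp for CEBPD (chromosome 4, 79872863 to 79874481, plus strand), so the marked regions reached past both ends of the gene. CEBPA (chromosome 6, 43083200 to 43085884, minus strand), also with 1 exon, had an H3K4me3 peak of 4439 and 4386 bp over its 2685 bp. The start of a long noncoding RNA, LOC102160718, lies at −234 bp from that of CEBPA under the same peaks, and the H3K4me3 summits (−420 and −644 bp) and H3K27ac summits (−488 and −402 bp) lie beyond it, so the marks of the 2 starts cannot be told apart. PPARG had an H3K27ac peak of ordinary width, 2223 and 2130 bp. That of PPARD was narrower, 1284 and 1735 bp, and wider than those of 16.1% and 30.1% of genes with a TSS peak.

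LPL (chromosome 14, 4104761 to 4134964, plus strand) was the effector gene with promoter marks, and its marks were unequal. Its H3K4me3 peak covered the TSS, with a width of 2323 and 3143 bp and a mean fold above 22.6% of protein-coding genes with the mark. Its H3K27ac peak measured 470 and 954 bp, had its summit in the first intron 537 and 721 bp after the TSS, and had a mean fold of 3.95 ± 1.32 (SD, n = 2), above 2.25% of protein-coding genes with the mark. In replicate 1 the −log10 q-value of that peak was 4.39, so that a minimum of 5 removed LPL from the genes with H3K27ac and left 0 of 4 effector genes. The shares of all and of protein-coding genes with H3K27ac at that minimum were not computed. No CTCF peak lay within 1 kb of the LPL start, and the nearest shared one, with folds of 40.6 and 45.6, had its summit at −3722 bp (negative distances are upstream of the TSS).

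CTCF peaks at the 5 marked regulators had their summits upstream of the TSS. PPARG had CTCF folds of 11.9 and 33.6, which differed more between replicates than those of any other member. PPARD had 25.2 and 30.6, CEBPA 27.3 and 30.9, CEBPB 17.3 and 26.2, and CEBPD 20.2 and 32.4. The ranges of the 5 genes overlapped, except that both values of CEBPB were below both of CEBPA, and mean folds stood above 54.5% (CEBPB) to 72.8% (CEBPA) of the 3487 protein-coding genes with a CTCF peak at the TSS. Summits in replicate 2 were at −144 bp for PPARG, −150 bp for PPARD, −22 bp for CEBPA, −596 bp for CEBPB and −483 bp for CEBPD.

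Each of these 5 peaks held a match to the CTCF motif, which was learned from 600 strong peaks elsewhere in the genome. A match within 100 bp of the summit was present in 84.8% of the 3383 shared CTCF regions at protein-coding starts, in 89.9% of all 37874 shared regions and in 10.2% of sequences taken 1 kb away. The sites are shown because they are the matches under the CTCF peaks of these promoters, and a match does not show that the protein binds those bases. Each is read 5′ to 3′ on its own strand with the 19 bases of the motif in capitals, on Sscrofa11.1 with the flanking bases included in the coordinates. The PPARG site lies on chr13:68301390-68301418 (minus strand), the PPARD site on chr7:31222368-31222396 (plus), the CEBPA site on chr6:43085872-43085900 (minus), the CEBPB site on chr17:51722029-51722057 (plus) and the CEBPD site on chr4:79872363-79872391 (plus).
PPARG: cacaaCCGCCGCTGGGAGGCGACCcagaa
PPARD: actggCTCGCACCAGAGGGCGCTCtaagc
CEBPA: cggttTGGACACTAGAGGGCGATGgccgc
CEBPB: ggcctCCTCCAGCAGGGGGCGGGCcgcgg
CEBPD: agaaaCCACCGCAAGATGGCACTGctcta
The motif pointed in the direction of transcription at PPARD, CEBPA, CEBPB and CEBPD and against it at PPARG. The match at PPARG was the weakest, with a motif score p-value per position of 2.3e-05. Those of the others ran from 1.8e-07 (CEBPB) to 5.8e-07 (CEBPD). Its centre was at −162 bp for PPARG, −151 bp for PPARD, −590 bp for CEBPB and −486 bp for CEBPD. At CEBPA it was at −2 bp, so that the motif spanned the annotated start.

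Base composition of the promoters divided the genes along nearly the same line. From 250 bases before to 50 bases after the TSS, GC content was 66.7% to 76.3% in the 5 marked regulators, against a median of 58.7% over protein-coding genes. CpG dinucleotides, written as the ratio of their observed number to that expected from the C and G content, stood at 0.939 for CEBPD, 0.915 for PPARD, 0.869 for PPARG, 0.806 for CEBPA and 0.736 for CEBPB. These 5 ratios were above the median of protein-coding genes, which was 0.65. PPARA had 0.446, FABP4 0.49, PLIN1 0.222, ADIPOQ 0.183 and LPL 0, all below the median. For PPARA and CEBPB the stretch is placed by the coding start, so it may not be the promoter. Low ratios in so short a stretch rest on few dinucleotides, 5 in FABP4 and ADIPOQ, 4 in PLIN1 and 0 in LPL.

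Over all protein-coding genes, the share with H3K4me3 at the TSS in both replicates was 20.7% for ratios under 0.2, where LPL and ADIPOQ lie, and 32.7% from 0.2 to 0.4, where PLIN1 lies. It was 62.8% from 0.4 to 0.6, where PPARA and FABP4 lie, 90.9% from 0.6 to 0.8 (CEBPB) and 97.0% from 0.8 to 1.0 (PPARG, PPARD, CEBPA and CEBPD). Of the 10 genes, 7 were in the more frequent state of their group, and the others were LPL with the mark and PPARA and FABP4 without it. CTCF shares ranged only from 8.3% to 23.3% over the same groups. LPL had H3K4me3 although this stretch held no CpG, but over 1 kb on each side of the TSS its ratio was 0.577, beside a median of 0.576, and FABP4, ADIPOQ, PLIN1 and PPARA had 0.198, 0.254, 0.319 and 0.369. PPARD, although marked, fell below the median in this longer stretch with 0.566, and the other 4 marked regulators had 0.799 to 0.953.

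The 150 bases before the TSS of 2 marked regulators and 2 unmarked effector genes are printed to show this contrast, 5′ to 3′ on the strand of the gene, with every CpG in capitals. They were read from the RefSeq Sscrofa11.1 sequence at chr13:68301416-68301565 (PPARG, plus strand), chr6:43085885-43086034 (CEBPA, minus), chr7:55250798-55250947 (PLIN1, minus) and chr13:124633756-124633905 (ADIPOQ, plus).
PPARG: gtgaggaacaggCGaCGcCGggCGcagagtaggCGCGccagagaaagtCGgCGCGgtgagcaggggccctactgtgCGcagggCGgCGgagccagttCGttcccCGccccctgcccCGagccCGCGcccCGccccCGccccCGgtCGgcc
CEBPA: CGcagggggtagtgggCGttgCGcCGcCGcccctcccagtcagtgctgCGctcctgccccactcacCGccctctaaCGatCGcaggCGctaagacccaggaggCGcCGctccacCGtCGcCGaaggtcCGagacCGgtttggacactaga
PLIN1: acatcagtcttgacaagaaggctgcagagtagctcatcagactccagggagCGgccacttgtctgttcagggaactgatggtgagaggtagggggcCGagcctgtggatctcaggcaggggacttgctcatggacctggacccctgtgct
ADIPOQ: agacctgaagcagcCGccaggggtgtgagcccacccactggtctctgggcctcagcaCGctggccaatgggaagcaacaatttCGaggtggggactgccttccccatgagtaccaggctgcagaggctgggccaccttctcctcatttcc
These stretches held 21 CpGs in PPARG and 17 in CEBPA, against 2 in PLIN1 and 3 in ADIPOQ. GC content was also higher in the regulators, 78.0% in PPARG and 69.3% in CEBPA, against 62.0% in ADIPOQ and 58.0% in PLIN1.

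**Figure D2:**
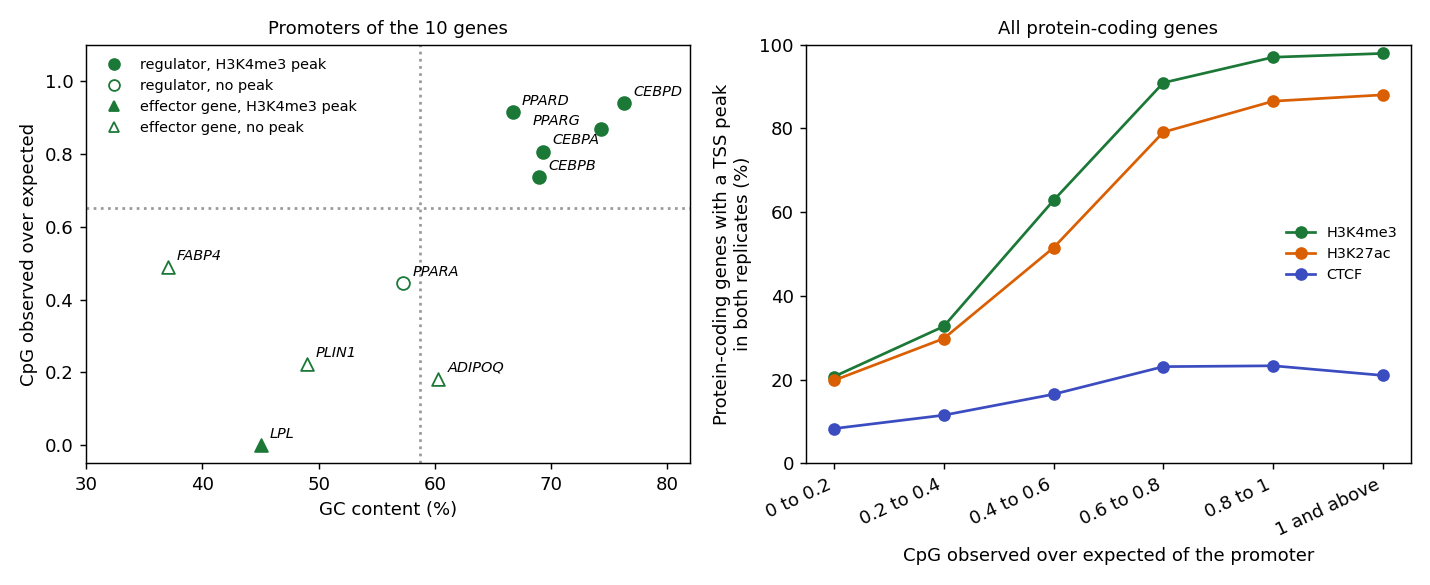
Left, GC content (x axis, %) and CpG observed over expected (y axis) of the 10 promoters from 250 bases before to 50 after the TSS, with circles for regulators, triangles for effector genes, filled symbols for genes with an H3K4me3 peak and dotted lines at the medians of protein-coding genes; right, share of protein-coding genes (%) with a TSS peak in both replicates by CpG ratio. The 5 marked regulators sit together above both medians, and the H3K4me3 share climbs from 20.7% to 97.9% with the ratio while the CTCF share stays at or below 23.3%.

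Short motifs of promoter binding proteins were searched on both strands of the same stretch. The GC box GGGCGG, bound by factors of the SP family, had 4 matches in PPARG, 4 in CEBPD, 2 in PPARD and 2 in CEBPA, and none in the other 6 genes. It occurred in 50.7% of protein-coding promoters. The CCAAT box occurred in 35.3% of them and in PPARA, PPARD, CEBPB, FABP4, LPL and ADIPOQ. TATAAA, the TATA box, occurred in 10.8%, and in CEBPA, CEBPB, LPL and PLIN1. In LPL a match began at −61 bp, while that of CEBPA lay after the TSS and those of CEBPB and PLIN1 at −236 and −160 bp. AGGTCA, the unit to which nuclear receptors bind, was matched in CEBPA alone, against 14.1% of promoters. Its direct repeat with 1 base between the copies (DR1), the kind of site that PPAR and RXR bind, and the C/EBP palindrome TTGCGCAA had no match in the 10 promoters, and 0.0308% and 0.205% of protein-coding promoters had one. A match is a description of the letters, and no match says nothing of sites that differ from them or lie outside this window.

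PPARG (chromosome 13, 68301566 to 68433951, plus strand) has 8 annotated transcripts whose starts fall into 4 groups over 81506 bp. Of these, 7 encode the same 475 residues from a coding start at 68383636, and NM_214379.1, which starts at 68364001, encodes 504. In other mammals the fat cell isoform, PPARG2, is the longer protein and is made from a promoter of its own inside the gene. The first group of starts, from 68301566 to 68302545, was the one with H3K4me3 in both replicates.

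At the second group (68344359) and the fourth (68383072), no peak of any of the 3 targets lay within 1 kb in any library. At the third group (68363831 to 68364001), where the transcript for the longer protein starts, H3K4me3 was called in replicate 2 alone, with a fold of 4.03 and a width of 480 bp. H3K27ac had a peak within 1 kb of it in each replicate, with folds of 2.79 and 3.66. These were different peaks, and that of replicate 2 was shared with a replicate 1 peak of fold 2.33 in the region 68361907 to 68363096. CTCF had a shared peak with folds of 10.6 and 14.0 whose summit lay 1059 and 1049 bp after 68363831, in an intron. The promoter windows at these inner starts held 0 CpGs at 68344359, 2 and 1 at 68363831 and 68364001, and 4 at 68383072, beside 36 at the first start.

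Inside the PPARG gene, H3K27ac was spread over weak peaks. There were 17 peaks in replicate 1 and 13 in replicate 2 over 132386 bp, and the strongest shared one within 100 kb of the first start, other than that at the start itself, at 68365793 to 68367613, had folds of 6.49 and 7.52. This region begins less than 2 kb after the start of the NM_214379.1 transcript, and its summit lies in an intron. H3K4me3 had 1 peak in the gene body in replicate 1 and 8 in replicate 2, so those away from the TSS were found in replicate 2 only. Apart from the region over the TSS, the nearest shared CTCF region upstream of the gene was 134185 bp away, and PPARG had the fewest CTCF summits within 100 kb of the 10 genes, 2 and 3.

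**Figure D3:**
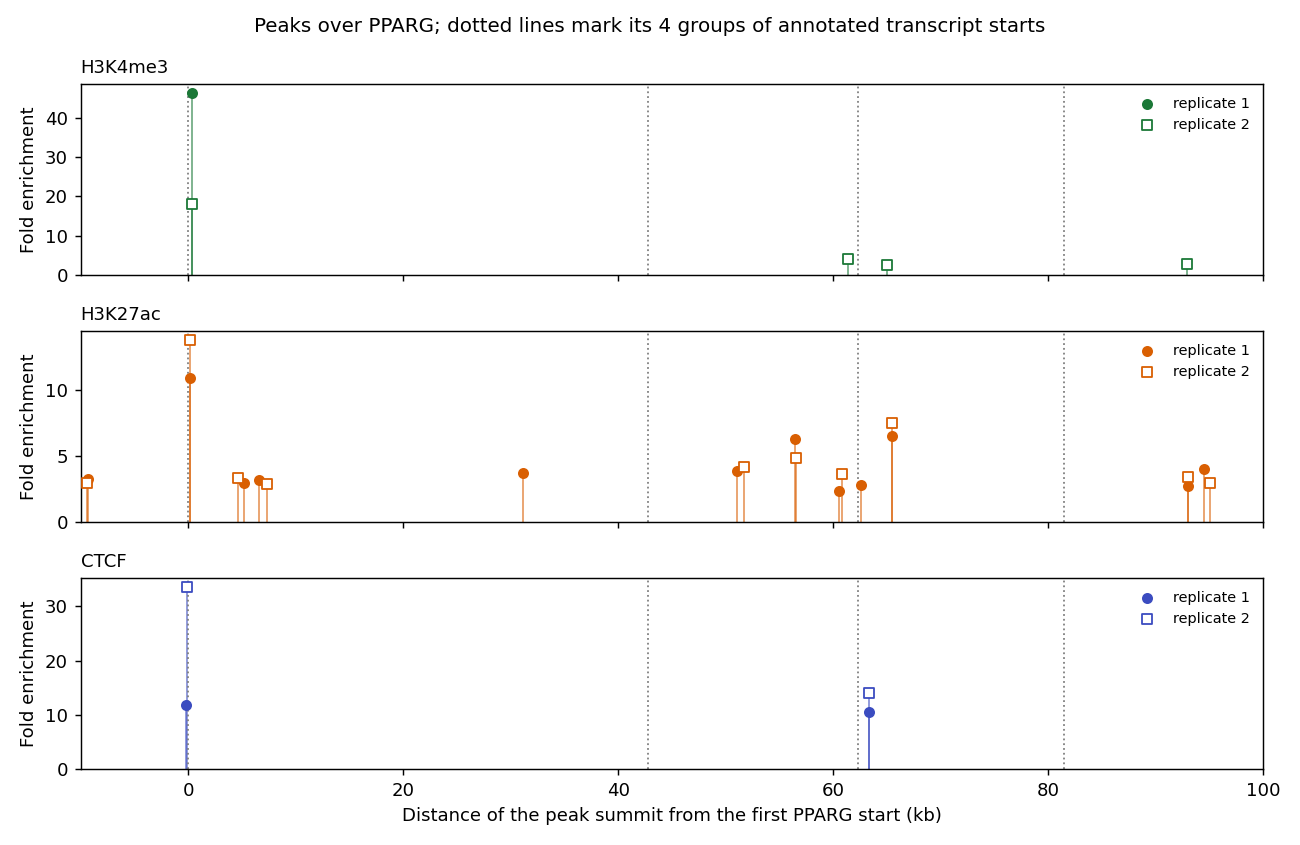
Fold enrichment (y axis, linear) of peaks over PPARG against the distance of their summit from the first start (x axis, kb) for H3K4me3, H3K27ac and CTCF in both replicates, with dotted lines at the 4 groups of transcript starts. The tall peaks of all 3 targets stand at the first start, and at the third group an H3K4me3 peak of 4.03, H3K27ac peaks of 2.79 and 3.66 and CTCF peaks of 10.6 and 14.0 stand nearby.

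PPARA, the regulator of fatty acid oxidation, was the regulator without a TSS peak. Its only transcript, NM_001044526.1 (chromosome 5, 3302755 to 3321091, minus strand), begins at the first base of the coding sequence, so the annotation gives it no 5′ untranslated region and the place of its promoter is not given by this model. Such models were found for 1792 protein-coding genes, of which 30.5% had H3K4me3 at the annotated start, against 72.8% of the 17692 with a 5′ untranslated region. CEBPB has a model of the same kind but did have the marks. Upstream of PPARA, a region at 3364378 to 3367699 had H3K4me3 folds of 59.5 and 20.3 and a summit at −45826 bp, and an H3K27ac region at 3365165 to 3367223 had folds of 10.6 and 9.8.

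No annotated transcript of any gene starts within 1 kb of that H3K4me3 region. Of all 33038 shared H3K4me3 regions, 55.7% had no annotated start within 1 kb, and their median fold was 5.62, beside 36.7 for regions with one. The region upstream of PPARA had a mean fold of 39.9, above 98.6% of the regions without a start. Whether it is the promoter of PPARA was not tested. Within the gene body of PPARA the only peak was of H3K27ac in replicate 2, and the nearest shared CTCF regions lay 18015 bp beyond its 3′ end and 55847 bp before its start.

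FABP4, the fatty acid binding protein of fat cells (chromosome 4, 55096400 to 55101209, plus strand), had no peak in its body. The nearest shared H3K4me3 region was 21876 bp downstream, in the neighbouring gene PMP2 of the same protein family, with folds of 21.7 and 16.6. H3K27ac there had folds of 6.99 and 5.54. Within 100 kb, FABP4 had 2 and 3 H3K4me3, 7 and 6 H3K27ac and 5 and 4 CTCF summits. Their means were above those of 18.8%, 36.1% and 38.3% of protein-coding genes. The strongest shared CTCF peak of FABP4, at −27254 bp, had folds of 57.0 and 77.8.

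PLIN1, which coats the lipid droplet (chromosome 7, 55237517 to 55250797, minus strand), had marks at its far end instead of its start. A region at 55236668 to 55238263 had H3K4me3 folds of 31.6 and 15.7 and one at 55237105 to 55238245 had H3K27ac folds of 15.5 and 18.4, with summits 13121 and 13178 bp after the TSS in a coding exon near the 3′ end of the gene. No annotated start lay within 1 kb of this H3K4me3 region, whose mean fold of 23.6 was above 94.0% of such regions. CTCF was found in a coding exon at 3497 bp, with folds of 17.9 and 27.5. The nearest H3K4me3 region on the other side, with a mean fold of 50.4 ± 23.2 (SD, n = 2), lies at the shared promoter of PEX11A and WDR93.

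ADIPOQ, which encodes the hormone adiponectin (chromosome 13, 124633906 to 124646237, plus strand), had marks near its start but not on it. H3K27ac had a shared region at −2048 bp with folds of 6.46 and 7.63, which a TSS distance of 5 kb would include. H3K4me3 had one at −9598 bp with folds of 39.9 and 26.5, above 97.4% of regions without an annotated start, and H3K27ac there was low, 3.29 and 4.07. Inside the gene, CTCF had folds of 87.1 and 92.7 in an intron at 4677 bp, the highest CTCF folds among the shared regions within 100 kb of the 10 genes.

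**Figure D4:**
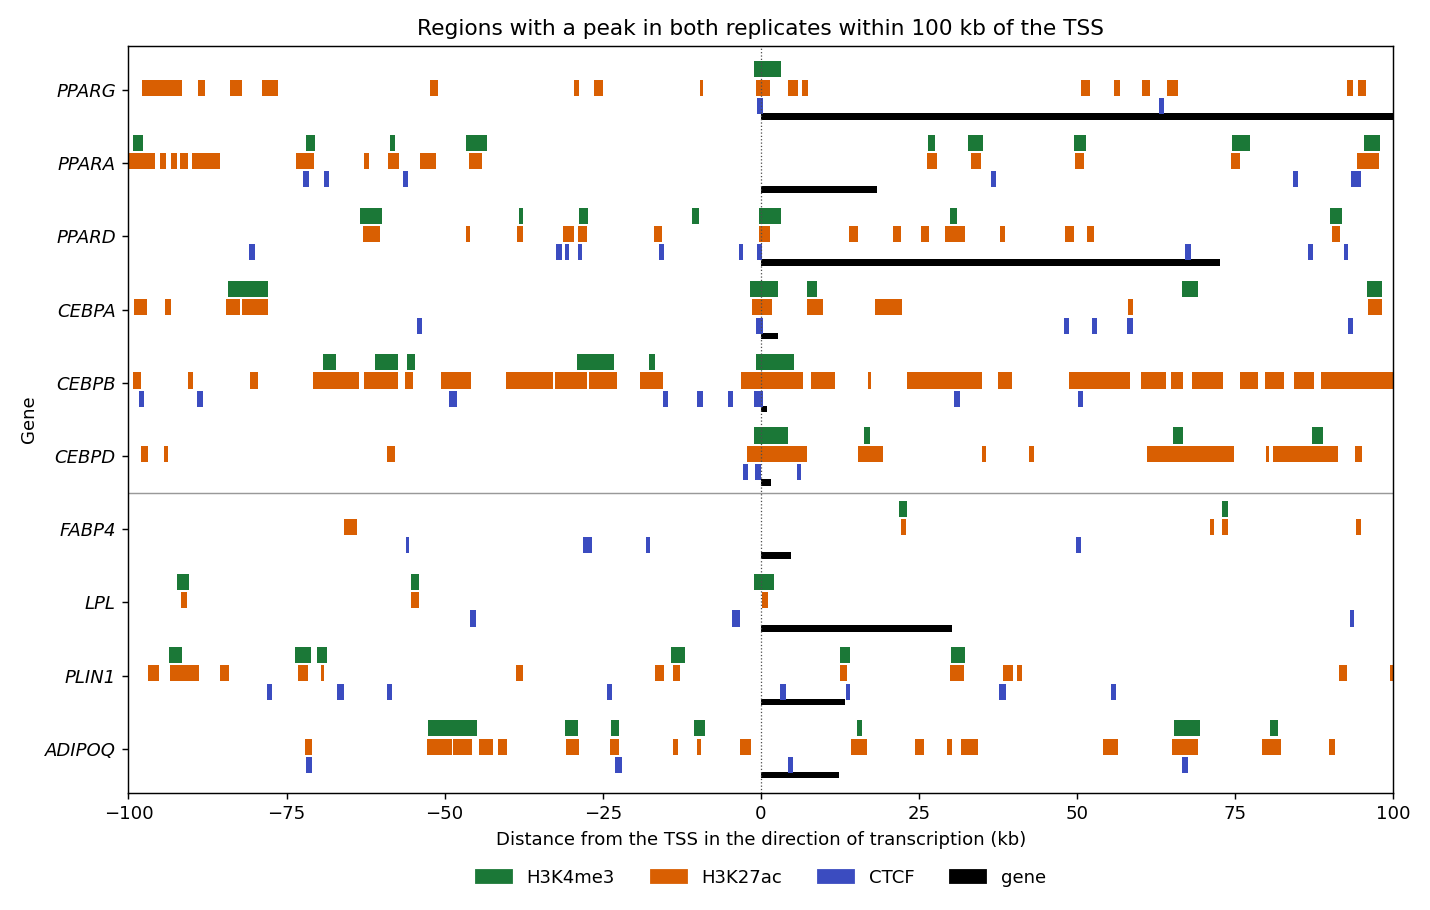
Regions with a peak in both replicates (bars, at least 0.5 kb wide as drawn) within 100 kb of each TSS for H3K4me3, H3K27ac and CTCF, with distance in the direction of transcription on the x axis (kb), genes on the y axis, regulators above the grey line and the annotated gene in black, cut at 100 kb. CEBPB is surrounded by H3K27ac on both sides, the histone marks nearest to the starts of PLIN1 and ADIPOQ lie away from them, and FABP4 and LPL have few regions.

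Within 100 kb of the TSS, H3K27ac was more frequent around most of the 10 genes than around protein-coding genes at large. The median number of summits, averaged over replicates, was 17.8 for the 6 regulators and 12 for the 4 effector genes, beside 9.0 for protein-coding genes with quartiles of 4.0 and 14.5. CEBPB had 31 and 37, more than 99.7% of protein-coding genes. PPARA had 18 and 23 although its annotated start carried none. ADIPOQ had 19 and 18, PPARG 19 and 17, PLIN1 16 and 19, PPARD 16 and 19, CEBPD 15 and 16 and CEBPA 9 and 12. FABP4 had 7 and 6 and LPL, in spite of its marked start, 4 and 3. The sets overlapped, with mean numbers from 3.5 to 18.5 for effector genes and from 10.5 to 34 for regulators. FABP4 and LPL were below every regulator, and CEBPB and PPARA were above every effector gene.

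Of the H3K27ac summits around regulators, 54 of 108 in replicate 1 and 60 of 124 in replicate 2 lay in the body of another gene, and 18 and 25 in intergenic sequence. Around effector genes, 21 of 46 and 18 of 46 were intergenic. Single genes weighed heavily in these numbers. ADIPOQ gave 11 and 10 of the intergenic summits around effector genes. CEBPB gave 19 and 20 of those in the body of another gene around regulators. The same shares over all genes were not computed, so the 2 sets are not compared. Peaks overlapping the window of CEBPB, cut at its ends, covered 102 and 113 kb of it in replicates 1 and 2. Its widest shared regions apart from its own promoter measured 11840 bp (summit 30767 bp after the TSS, folds 27.3 and 29.3) and 17339 bp (summit at 99150 bp, folds 18.9 and 24.8). CEBPD had regions of 13723 bp (66273 bp after the TSS, mean fold 31.1 ± 1.57, SD, n = 2) and 10203 bp (88708 bp, folds 32.5 and 21.9), both inside another gene. Promoters of neighbouring genes take part in these counts, and 7 other gene starts with H3K27ac in both replicates lay within 100 kb of CEBPB.

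In PPARD (chromosome 7, 31222533 to 31295221, plus strand), which had 8 and 11 H3K27ac peaks in its body, the strongest away from the TSS had folds of 6.35 and 8.84 at 48962 bp. An intragenic CTCF region at 67545 bp had folds of 37.4 and 51.9. Beyond the gene, at 91032 bp, H3K4me3 had folds of 78.4 and 33.7 with no annotated start within 1 kb, above 99.9% of such regions. H3K27ac there, at 90858 bp, had folds of 9.44 and 20.8, a range that holds both values at the PPARD promoter. CEBPA had H3K27ac regions at 7859 bp, with folds of 8.94 and 12, and at 21433 bp, with 7.23 and 9.77.

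CTCF did not set the regulators apart at this distance. Their median was 6.5 summits, that of the effector genes 5.0 and that of protein-coding genes 5.0. PPARD and CEBPB had the most, 10 and 11 and 10 and 10, and PPARG and CEBPD few, 2 and 3 and 3 and 3. H3K4me3 medians were 6.25 for regulators, 5.0 for effector genes and 5.5 for protein-coding genes. A CTCF motif was present in 34 of the 36 shared CTCF regions around regulators (94.4%) and in 14 of 19 around effector genes (73.7%), beside 89.9% of all shared CTCF regions. The 5 regions without a match around effector genes were 2 at FABP4, 2 at PLIN1 and 1 at ADIPOQ.

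**Figure D5:**
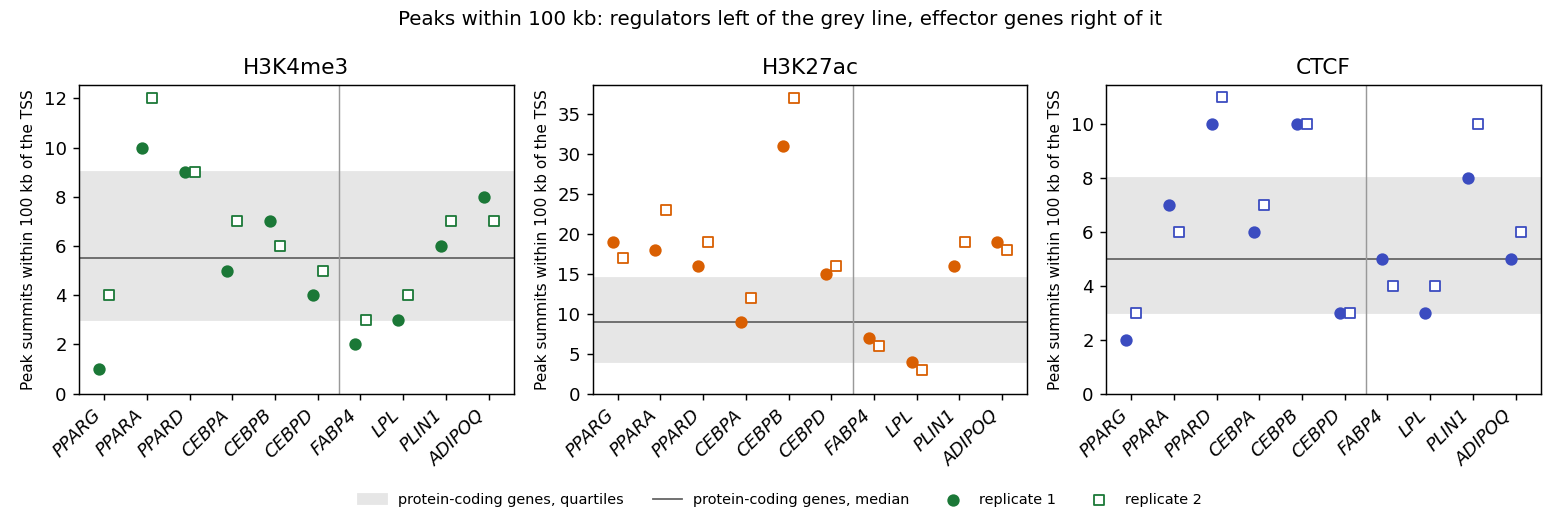
Number of peak summits within 100 kb of the TSS (y axis) of each gene (x axis) for H3K4me3, H3K27ac and CTCF, with 1 point per replicate and, in grey, the median and quartiles of protein-coding genes. CEBPB stands out in H3K27ac with 31 and 37 summits, and effector genes lie on both sides of the median.

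Other genes of the pathway were counted from lists chosen by function. Of 10 partners and cofactors of the nuclear receptors, 7 had H3K4me3 at the gene TSS in both replicates, close to the 68.9% of protein-coding genes. The highest mean folds belonged to MED1 (50.9), PPARGC1A (46.5), RXRB (45.9) and NCOR1 (45.2). RXRA, RXRG and NCOA2 had no H3K4me3 peak at the gene TSS, but when any annotated transcript start was allowed, 10 of 10 had the mark. At that setting, 57.8% of all genes and 72.0% of protein-coding genes had it, and 52.3% and 63.7% had H3K27ac. Those shares are over genes with any number of starts. RXRA had 32 starts, NCOA2 11 and RXRG 4, and more starts give more chances of a peak. Of 13 other transcription factors that promote adipogenesis, 11 had H3K4me3 at the gene TSS, beside the same 68.9%, and 13 at any start. Mean folds were highest at KLF5 (45.4), KLF4 (43.2), ZNF423 (40.6) and EBF1 (39.4). NR1H3 and NR3C1 were the ones without it at the gene TSS, and STAT5A and STAT5B share 1 peak.

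Among inhibitors of adipogenesis, H3K4me3 was present at the gene TSS of 9 of 10, beside 68.9% of protein-coding genes, with the highest mean folds at SIRT1 (60.3), GATA2 (49.4), GATA3 (43.8) and FOXO1 (41.0), and was absent from DLK1, the surface protein of preadipocytes, at any start. H3K27ac at GATA2 was low, 3.73 and 4.02, and 7 of the 10 had H3K27ac in both replicates, beside 60.7% of protein-coding genes.

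Lists of lipid storage genes and of secreted fat cell proteins are to be read beside the same 68.9% of protein-coding genes, which 8 of 12 and 5 of 7 are close to. Of 12 lipid droplet and lipolysis genes, 8 had H3K4me3, and the genes without it were AQP7, CIDEC, PLIN4 and PLIN5. ABHD5 (56.2), PLIN3 (38.8), PLIN2 (35.9) and BSCL2 (32.2) had the highest mean folds. Of 16 genes of fatty acid uptake and lipid synthesis, 8 had it at the gene TSS and 10 at any start. FASN (44.1), ACLY (40.3) and SCD (39.7) led these, and ACSL1, DGAT2, GPAM and GPD1 were among those with no H3K4me3 peak at the gene TSS. Of these, ACSL1 had the mark in both replicates at another of its 9 starts. Of 7 adipokines and adipokine receptors, 5 had H3K4me3, with NAMPT (54.3), ADIPOR1 (53.7) and ADIPOR2 (52.8) highest. LEP, which encodes leptin, had folds of 6.28 and 3.5 with no H3K27ac, and RETN had no peak of either histone mark.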

How the data were processed

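H3K4me3, H3K27ac and CTCF were profiled by ChIP-seq in untreated PEFs, with 2 replicates each. The authors mapped reads with Bowtie2, kept pairs that mapped to 1 place, discarded duplicates and called peaks library by library with the narrow mode of MACS2 on Sscrofa11.1 (versions not given in the sources used here). The deposited lists give, for each peak, an integer score (not used), the fold enrichment as a ratio over the control, and the −log10 p-value and −log10 q-value. The methods state a q-value of 0.01, but deposited q-values reached 0.0432 to 0.0499, and lists were used whole. The 2 input libraries were not analysed here.

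The highest-fold peak overlapping 1 kb around each TSS was taken per library, and regions were shared where peaks of both replicates overlapped by at least 1 bp. Summits were counted within 100 kb. Promoter sequence and gene models came from RefSeq. The CTCF motif (19 bases) was learned by expectation maximisation from 600 replicate 1 peaks outside the windows of the 10 genes and matched at p 0.0001 per position. Analyses ran in Python 3.11.15 with NumPy 2.4.6 and pandas 2.3.3. Overlap counts and the motif search were tested on simulated data. Members and lists were chosen with earlier results of these data known, and no hypothesis test was made. All 10 members are named, and of each other list at most 4 genes of highest mean H3K4me3 fold and 4 without a peak, in alphabetical order. AGPAT2 and MYH3 were not analysed here. Alternatives were a stricter q-value (−log10 of 5 or more), TSS distances of 500 bp and 5 kb, windows of 50 and 200 kb, other overlap rules, any transcript start, protein-coding genes and single replicates. The promoter sequence of 1 gene is not reported here.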

Additional observations from a re-analysis of the deposited data

How the results depend on the processing

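The numbers of members with H3K4me3 and H3K27ac at the TSS stayed within 1.5 times of the reported ones under every alternative. A TSS distance of 5 kb raised the members with CTCF from 5 to 8, by 3 effector genes, and the effector genes with H3K27ac from 1 to 2, and a −log10 q-value of at least 5 lowered the latter to 0. The shares over all genes at 5 kb and at that q-value were not computed. The median number of H3K27ac summits around regulators was 12.5 at that q-value, 6.75 within 50 kb, 34.75 within 200 kb, 16.0 for shared peaks and 12.5 for peaks overlapping by 50% of both, and 17.0 to 18 with 1 replicate left out. Around effector genes it was 7.75, 4.5, 21.0, 9.5 and 8.0 in the same order, and 11.5 to 12 with 1 replicate left out. CTCF medians within 50 kb and 200 kb were 2.5 and 13 for regulators and 2.5 and 9.0 for effector genes, and under either rule for shared peaks 6.0 and 4.0. The regulators' H3K27ac median was above that of the effector genes under each of these alternatives. Windows of other lengths count more or less sequence by construction, and the cause of the other shifts was not tested. No paired analysis was possible because the results come from no test.

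With 2 replicates and no read counts, a missing peak does not show that a mark is absent, and no counting interval can be given. All statements on starts depend on the RefSeq models, which for PPARA and CEBPB begin at the coding start.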
